A study of Mus musculus with 4 samples.

Results

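The genes described here are 10 genes that mark developing and mature T cells: Cd3d, Cd3e, Cd3g, Ptcra, Rag1, Lck, Thy1, Cd8b1, Dntt and Themis. They were read on arrays of the trachea of mouse embryos, and each is represented by its probe set of highest mean log2 signal over all 4 arrays, with no filter on level. Of the 10 genes, 9 were paired with a probe set of their own, out of 18193 genes measured in all, and Lck, the kinase that first phosphorylates the T-cell receptor complex, was not analysed here. The genes were chosen by their signals on these same arrays, whose pattern was known, so their values are given as a description and no test is read from them. RNA came from C57BL/6 embryos at embryonic day 16, with 2 wild-type samples, 2 samples labelled a1H knockout and 1 Affymetrix array for each. The name a1H is read as Cacna1h, which encodes the alpha-1H subunit of a T-type calcium channel, and the labels give neither the allele nor the sexes or pools of embryos. Nothing in them says that samples of a genotype came from separate embryos, so how much of the spread between them is technical is unknown. With 2 arrays per group the smallest two-sided p of an exact permutation test is 0.333.

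T cells develop in the thymus, which arises from the pharyngeal pouches and lies in front of the trachea in the upper chest. Immature thymocytes cut and rejoin the receptor genes with the RAG recombinase and pair a new receptor beta chain with the pre-T alpha chain. They then gain the coreceptors CD4 and CD8 and carry a receptor whose signal leaves through the CD3 chains.

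The arrays differed in more than genotype. Cartilage and airway genes were bright on all 4 arrays: Col2a1, the main cartilage collagen, read between 14609 and 27724, and Scgb3a2, a secretoglobin of airway epithelium, between 23443 and 37278. Markers of other organs differed widely between arrays. The placental gene Tpbpa read 37380 on knockout replicate 2 and at most 374 elsewhere, and the salivary gland gene Smgc read 28112 on wild-type replicate 2 but 3.74 on wild-type replicate 1, with 12724 and 4139 on the arrays labelled knockout. Cacna1h was not lower on the arrays labelled knockout, with signals of 630 and 538 on the wild-type arrays and 981 and 631 on those labelled knockout. Whether its probe set lies in the deleted part is unknown, and the labels were therefore not checked by it. The geometric mean of 18 spiked hybridisation controls was 5518 and 5449 for replicate 1 and 13082 and 16126 for replicate 2. All values below are MAS5 signals, a linear brightness scaled per array, and log2 differences are of log2(signal + 16). Since each probe set has its own brightness, no gene's signal is set against another gene's.

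Thymocyte genes gave signal in these tracheal samples. Their median difference between the 2 single arrays of a genotype was at least as large as that between the 2-array means of the genotypes. Differences between single arrays vary more than differences between means. In 8 of the 9 measured genes the signal was highest on knockout replicate 1 and lowest on wild-type replicate 1, with wild-type replicate 2 and knockout replicate 2 in between. Among all 18193 genes, 4.16% had that pair of extremes. The exception was Dntt. The plot of thymocyte gene signals shows every array.

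**Figure D1:**
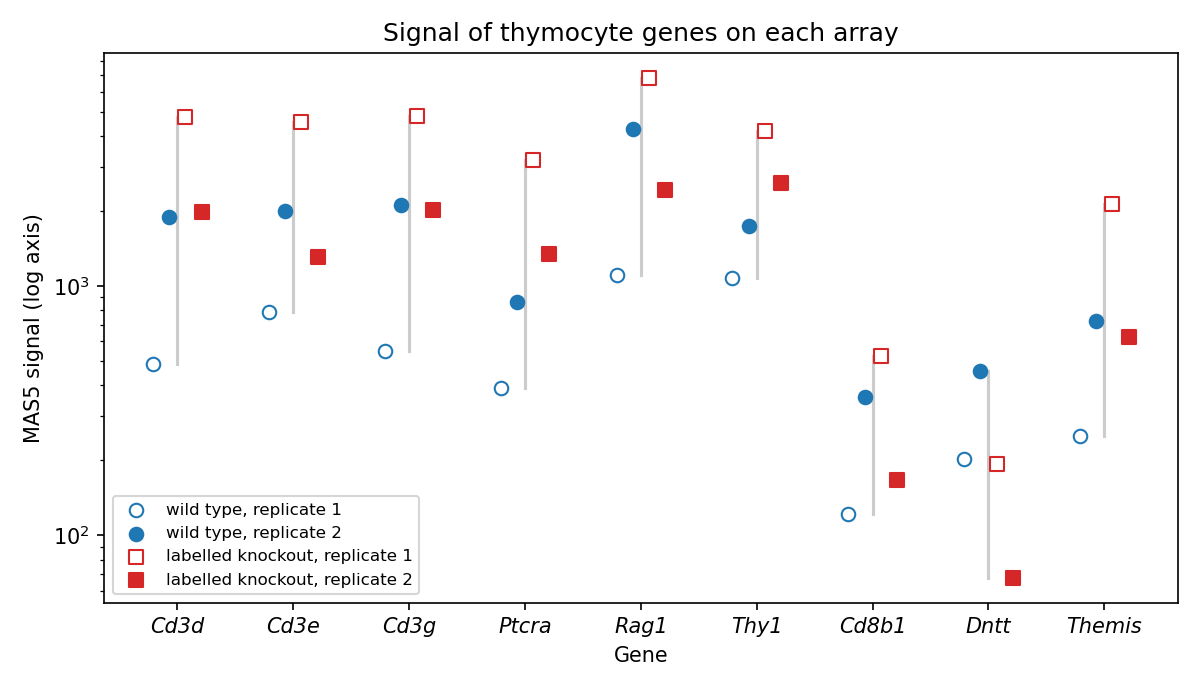
MAS5 signal on a log axis for the 9 measured thymocyte genes, with 1 point per array. Circles are wild type and squares the labelled knockout, open for replicate 1 and filled for replicate 2, and grey lines span the lowest to the highest array. In every gene but Dntt the open square is highest and the open circle lowest.

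The CD3 chains carry the signal of the T-cell receptor into the cell, and their genes lie side by side on chromosome 9, Cd3g next to Cd3d and Cd3d next to Cd3e, with 0 annotated genes between neighbours. Cd3d, the delta chain, read 485 and 1883 on the wild-type arrays and 4760 and 1982 on those labelled knockout. Wild-type replicate 1 was low and knockout replicate 1 high, and the groups did not overlap only because 1982 is just above 1883. The means were 1184 ± 989 and 3371 ± 1964 (SD, n = 2 each), and the mean log2 values differed by 1.66 with a standard error (SE) of 0.66.

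Cd3g, the gamma chain, read 548 and 2105 on the wild-type arrays and 4803 and 2013 on those labelled knockout. Its profile was close to that of Cd3d, but here the groups overlapped, since wild-type replicate 2 was above knockout replicate 2. The log2 difference was 1.52 with an SE of 0.65. Cd3e, the epsilon chain, read 787 and 2004 on the wild-type arrays and 4530 and 1311 on those labelled knockout. Its groups overlapped more widely, because knockout replicate 2 was below wild-type replicate 2, and the log2 difference was 0.95 with an SE of 0.64.

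Ptcra and Rag1 belong to the stage at which receptor genes are rearranged. Ptcra, the pre-T alpha chain, read 390 and 865 on the wild-type arrays and 3215 and 1339 on those labelled knockout. Both knockout arrays were above both wild-type arrays. The means were 628 ± 336 and 2277 ± 1327 (SD, n = 2 each), and the mean log2 values differed by 1.81, SE 0.51. This was the largest of the 9 log2 differences between the groups, and the ratio of knockout to wild type was 8.25 for the replicate 1 arrays and 1.55 for the replicate 2 arrays.

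Rag1, a subunit of the recombinase, read 1103 and 4276 on the wild-type arrays and 6830 and 2430 on those labelled knockout. Here wild-type replicate 2 exceeded knockout replicate 2, so the groups overlapped, and the wild-type arrays differed 3.88-fold from each other. The log2 difference between the groups was 0.90 with an SE of 0.69. Its partner Rag2, picked after its values were seen, read 155 and 398 on the wild-type arrays and 921 and 297 on those labelled knockout, in the same order of arrays as Rag1.

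The promoters of Ptcra, Rag1 and Cd3g are shown as examples, picked after the motifs were found, that hold E-box motifs, which E proteins, transcription factors of early T-cell development, are known to bind. The 250 bases before each start come from RefSeq on the build GRCm38.p6, written 5′ to 3′, with capitals marking CAGCTG and CAGGTG or its reverse complement CACCTG.
Ptcra, chr17:46763713-46763962, minus strand: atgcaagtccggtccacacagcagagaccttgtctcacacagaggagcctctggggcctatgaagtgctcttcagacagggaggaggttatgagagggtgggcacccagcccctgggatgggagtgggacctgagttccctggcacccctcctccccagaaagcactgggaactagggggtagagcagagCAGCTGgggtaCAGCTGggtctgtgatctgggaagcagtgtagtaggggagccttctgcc
Rag1, chr2:101649533-101649782, minus strand: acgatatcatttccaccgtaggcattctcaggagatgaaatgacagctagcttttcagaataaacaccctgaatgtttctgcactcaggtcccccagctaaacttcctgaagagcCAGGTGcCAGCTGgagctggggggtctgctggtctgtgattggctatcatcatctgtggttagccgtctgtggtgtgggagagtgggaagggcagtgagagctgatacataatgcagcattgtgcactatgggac
Cd3g, chr9:44980432-44980681, minus strand: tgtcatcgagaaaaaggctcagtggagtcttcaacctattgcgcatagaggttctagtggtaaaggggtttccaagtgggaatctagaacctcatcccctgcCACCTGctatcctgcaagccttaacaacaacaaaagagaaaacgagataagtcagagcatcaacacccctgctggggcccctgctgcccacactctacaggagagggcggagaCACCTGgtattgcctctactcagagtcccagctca
CAGCTG, the same on both strands, was found in 2 of the 7 measured genes with a window, Ptcra and Rag1, and CAGGTG in 3, Cd3d, Cd3g and Rag1. Over all 32851 windows of this length, 13.0% held CAGCTG and 17.2% CAGGTG, and 27.7% held either, against 4 of the 7 genes. The units differ, since percentages are of windows, while a gene is counted once if any of its windows matches. The windows of Cd3e, Dntt and Themis held neither, and Thy1 and Cd8b1 had no window. A link between motifs and signals was not tested. Other motifs searched on both strands were TGTGGT in 1 of the 7 genes (14.0% of all windows), AGGAAG in 3 (29.5%) and AGATAA in 2 (9.99%). A match is a run of letters and does not show binding.

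Dntt did not follow the other genes. It encodes terminal transferase, which adds bases at receptor joins and is known to be scarce in the fetal mouse thymus and to appear after birth. Its probe set read 203 and 456 on the wild-type arrays and 193 and 67.7 on those labelled knockout. Wild-type replicate 2 was highest, knockout replicate 2 lowest, and both replicate 1 arrays were nearly level. The log2 difference between the groups was -1.28, SE 0.62. The groups did not overlap. Its other probe sets were dim on all arrays, the brighter at 67.9 to 207 and the dimmer at 82.3 to 131, with log2 differences of -0.92 and -0.02. The median over all non-control probe sets was 459 and 416 on the wild-type arrays and 426 and 320.0 on those labelled knockout. Dntt was thus mostly in the dim range in which MAS5 values are noisy. The part of the low median of knockout replicate 2 in its low Dntt values was not tested.

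Thy1 and Cd8b1 are surface proteins of thymocytes. Thy1, which is also made by neurons and some fibroblasts, read 1082 and 1743 on the wild-type arrays and 4174 and 2597 on those labelled knockout. Its groups did not overlap, and it had the smallest spread within genotypes of the 9 genes, with a 1.61-fold difference between the arrays of either genotype. The means were 1412 ± 468 and 3385 ± 1115 (SD, n = 2 each), and the mean log2 values differed by 1.25 with an SE of 0.32.

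Cd8b1, the beta chain of the CD8 coreceptor, read 122 and 360 on the wild-type arrays and 526 and 167 on those labelled knockout. The groups overlapped, and knockout replicate 2 was at 0.463 of wild-type replicate 2, the reverse of the replicate 1 arrays. Its partner Cd8a read 629 and 1605 on the wild-type arrays and 2927 and 924 on those labelled knockout, with the same order of arrays.

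Themis, a signalling protein needed for positive selection of thymocytes, read 249 and 723 on the wild-type arrays and 2129 and 623 on those labelled knockout. The groups overlapped on the replicate 2 arrays, and the log2 difference was 1.40 with an SE of 0.68. The 3 further probe sets paired with Themis were dim, reading at most 319, 150 and 223, and gave log2 differences of 0.17, -0.11 and 0.08. On each of these 3 the highest array was again knockout replicate 1, and the lowest was knockout replicate 2 rather than wild-type replicate 1. Knockout replicate 2 also had the lowest median over all non-control probe sets, and the part of this was not tested.

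Between the genotypes, no gene on the arrays passed the test. In the limma fit of 18193 genes, 0 (0%) had a p under 0.05 after Benjamini-Hochberg adjustment, and the smallest adjusted p was 0.886. Before adjustment 849 genes (4.67%) had a p under 0.05, 399 (2.19%) higher and 450 (2.47%) lower on the arrays labelled knockout. Of the 9 thymocyte genes 8 had a positive log2 difference, against 8765 of all 18193 genes. The median was 1.25, beside -0.02 over all genes. Cd3d, Ptcra and Thy1 were the 3 whose knockout arrays were both above the wild-type arrays, which held for 16.8% of all genes, and Dntt was the 1 with both below, which held for 19.1%. The same 3 were those with an unadjusted p under 0.05 in the higher direction (2.19% of all genes), and nothing is read from this, since the genes were chosen with these values known.

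Matched by replicate number, the difference lay between the replicate 1 arrays, which in 8 of the 9 genes were the highest and the lowest. There the median log2 difference of the 9 genes, knockout minus wild type, was 2.61, with 8 genes at least 2-fold higher against 2.74% of all genes, and the highest was Cd3d at 3.25. Between the replicate 2 arrays the median was -0.21, with 3 genes above 0 and 6 below, where 9080 of all 18193 genes were above 0. There 0 genes were 2-fold higher against 3.96% of all genes. The labels do not say that a replicate number marks a litter, day or batch, or that it pairs arrays. Matching the arrays otherwise would give other differences. Within wild type, replicate 2 exceeded replicate 1 in all 9 genes, against 7596 of all 18193 genes, with a median log2 difference of 1.45. Of the 9 genes, 8 differed at least 2-fold against 3.78% of all genes. Within the labelled knockout, replicate 1 exceeded replicate 2 in all 9 genes, against 9875 of all 18193 genes, with a median of 1.32. Here too 8 differed at least 2-fold, against 7.53% of all genes. The median difference between genotypes, 1.25, was smaller in number than either median within a genotype. It is a difference of 2-array means, while those within a genotype lie between single arrays, which vary more. The sizes are therefore not measured alike. Thy1 and Ptcra differed more between the genotypes than within either, at 1.25 against 0.68 and 0.68, and at 1.81 against 1.12 and 1.25. The median between genotypes was 0.56 without wild-type replicate 1 and 0.53 without knockout replicate 1. It was 1.87 without wild-type replicate 2 and 1.84 without knockout replicate 2. In such bulk samples, more cells of a type and more RNA per cell cannot be told apart.

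**Figure D2:**
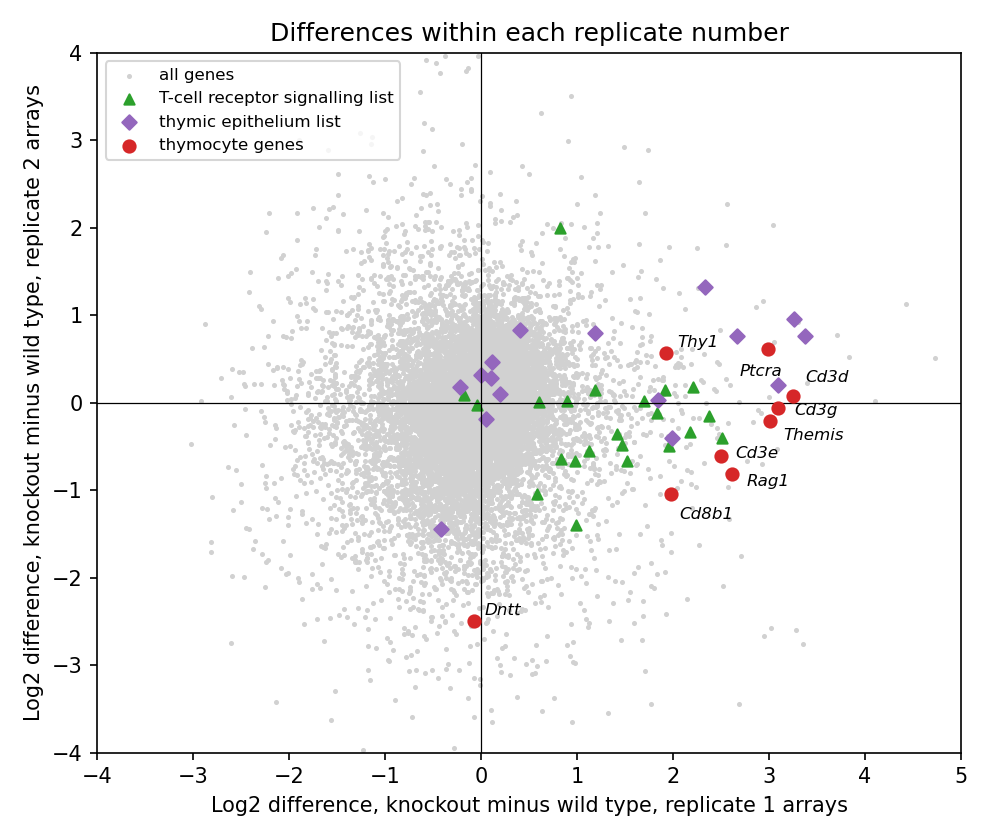
Log2 difference, labelled knockout minus wild type, between the replicate 1 arrays (horizontal axis) and between the replicate 2 arrays (vertical axis), for all genes in grey, the 9 thymocyte genes in red, the T-cell receptor signalling list in green and the thymic epithelium list in purple. Thymocyte genes other than Dntt lie far to the right but on either side of 0 vertically, and 69 genes lie outside the drawn range. The labels do not say that arrays with the same number are paired.

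Further genes of the T-cell pathway often had the same extremes. From 8 lists of them, 101 genes were measured. None passed the test (0 of 101 by limma), 14 had an unadjusted p under 0.05 in the higher direction (2.19% of all genes) and 2 in the lower (2.47% of all genes), and the median log2 difference was 0.33. Their median was 0.88 for replicate 1 and -0.12 for replicate 2. Knockout replicate 1 was highest and wild-type replicate 1 lowest in 41 of the 101, or 40.6%, against 4.16% of all genes. That share was uneven, with 9 of 14 surface genes, 6 of 24 transcription factors and 3 of 12 mature T-cell genes. The pattern was taken from these same arrays and the lists were chosen with earlier results known, so the share is a description and no test.

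Receptor segments and chains were measured in 3 of 14 listed genes. Trgv4, a variable segment of the gamma chain, read 267 and 984 on the wild-type arrays and 3695 and 1693 on those labelled knockout, without overlap, a log2 difference of 2.24. Cd247, the zeta chain, read 201 and 439 against 771 and 238, with overlap. Trbv13-2, a variable segment of the beta chain, read 245 and 282 against 774 and 202, so it was highest on knockout replicate 1 but lowest on knockout replicate 2. Receptor segments resemble each other in sequence, so a probe set for 1 segment may read others.

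Of 14 coreceptor and surface genes, 10 were higher and 4 lower in the labelled knockout by log2 difference (8765 of all 18193 genes were higher). Their medians were 1.62 and -0.58 between the replicate 1 and the replicate 2 arrays. Ptprc, the CD45 phosphatase of white blood cells, read 1275 and 2027 on the wild-type arrays and 4794 and 1777 on those labelled knockout. Cd27, a costimulatory receptor, read 173 and 400 against 924 and 476, without overlap. Ly6d, which keratinised epithelium also makes, read 946 and 1529 against 900 and 1350 and did not share the order. Cd4, picked after its values were seen, was dim, at 282 and 428 on the wild-type arrays and 370 and 27.0 on those labelled knockout.

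Of 22 receptor signalling genes, 18 were higher and 4 lower (8765 of all 18193 genes were higher). Their median was 1.30 for replicate 1 and -0.25 for replicate 2. Rasgrp1, which links the receptor to Ras, read 375 and 1003 on the wild-type arrays and 2017 and 901 on those labelled knockout. Sla, an adaptor that lowers receptor levels, read 1198 and 2700 against 3463 and 1693, and Prkcq, a protein kinase C of T cells, read 559 and 854 against 1294 and 950. Fyn, a Src kinase made in many tissues, read 5580 and 6373 against 4917 and 6784 and did not share the order.

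Besides Rag2, the list of rearrangement genes holds repair and chromatin genes that act in most cells. Hmgb2 read between 9989 and 16270, Xrcc6 between 2013 and 3602, Xrcc5 between 1821 and 3628 and Lig4 between 1045 and 1541. All 7 measured genes of this list were higher by log2 difference (8765 of all 18193 genes were), with a median of 0.35, and 0 passed.

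Transcription factors of the T lineage had a median log2 difference of 0.03 over 24 genes. The brightest, Tcf12, Id2, Myb and Satb1, are made in many embryonic tissues. Myb, a factor of blood progenitors and dividing cells, read 5855 and 10173 on the wild-type arrays and 13327 and 12517 on those labelled knockout, and Satb1, a chromatin organiser of thymocytes, read 6058 and 10076 against 10085 and 7600. Tcf12 had a log2 difference of -0.12 and Id2 of -0.32. Ikzf1, the Ikaros factor of lymphoid cells, is described below.

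Among 8 early progenitor genes and cytokine receptors, 6 were higher and 2 lower by log2 difference (8765 of all 18193 genes were higher). Il2ra, the interleukin 2 receptor alpha chain of immature thymocytes, read 98.7 and 711 on the wild-type arrays and 1960 and 721 on those labelled knockout, which differed by 4.11 in log2 units on the replicate 1 arrays and by 0.02 on the replicate 2 arrays. Cd24a, Cd44 and Kit are made in many other embryonic cells, and their log2 differences were 0.09, -0.55 and -0.37. Of 11 homing genes 8 were higher, against 8765 of all 18193 genes, with a median of 0.20. The brightest were Cxcr4, Itga4, Klf2 and Selplg, with differences of 0.20, 0.29, -0.18 and 1.06. Selplg, the ligand of selectins on white blood cells, read 276 and 306 on the wild-type arrays and 903 and 430 on those labelled knockout. All 12 genes of mature and effector T cells had a mean below the median level of the probe sets, a signal of 397. Among them Ctla4 read at most 512, Icos 388, Cd160 253 and Foxp3, the regulatory T-cell factor, 174.

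Genes of the thymic epithelium, the stroma in which thymocytes develop, also differed between these arrays. Their summed signal over 16 genes was 44173 and 60547 on the wild-type arrays and 73818 and 70295 on those labelled knockout, and 6 had an unadjusted p under 0.05, all higher (2.19% of all genes). The 4 brightest, Ctsl, Krt8, Cxcl12 and Pax9, are made in other parts of the airway and foregut as well, and their log2 differences lay between -0.07 and 0.29. Among genes nearer to this epithelium, picked after their values were seen, Prss16, a thymic serine protease, read 615 and 1604 on the wild-type arrays and 6554 and 2727 on those labelled knockout. Psmb11, a proteasome subunit of the thymic cortex, read 173 and 390 against 1792 and 774, and Ccl25, the chemokine that draws progenitors into the thymus, read 962 and 2535 against 6205 and 4327. In these 3 knockout replicate 2 was above wild-type replicate 2, by 0.76, 0.96 and 0.77 on the log2 scale. Ly75, an endocytic receptor, and Enpep, a membrane peptidase, picked in the same way, had differences of -0.40 and -1.44 there. The median of the 16 genes there was 0.30, with 13 above 0, against 9080 of all 18193 genes. The groups did not overlap, with the labelled knockout above, in 8 of the 16 genes, against 16.8% of all genes. Foxn1, the factor that defines this epithelium, also picked after its values were seen, was dim on all arrays, at 55.4 and 70.4 on the wild-type arrays and 78.6 and 138 on those labelled knockout. The part of thymic tissue in the samples in these differences was not tested.

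**Figure D3:**
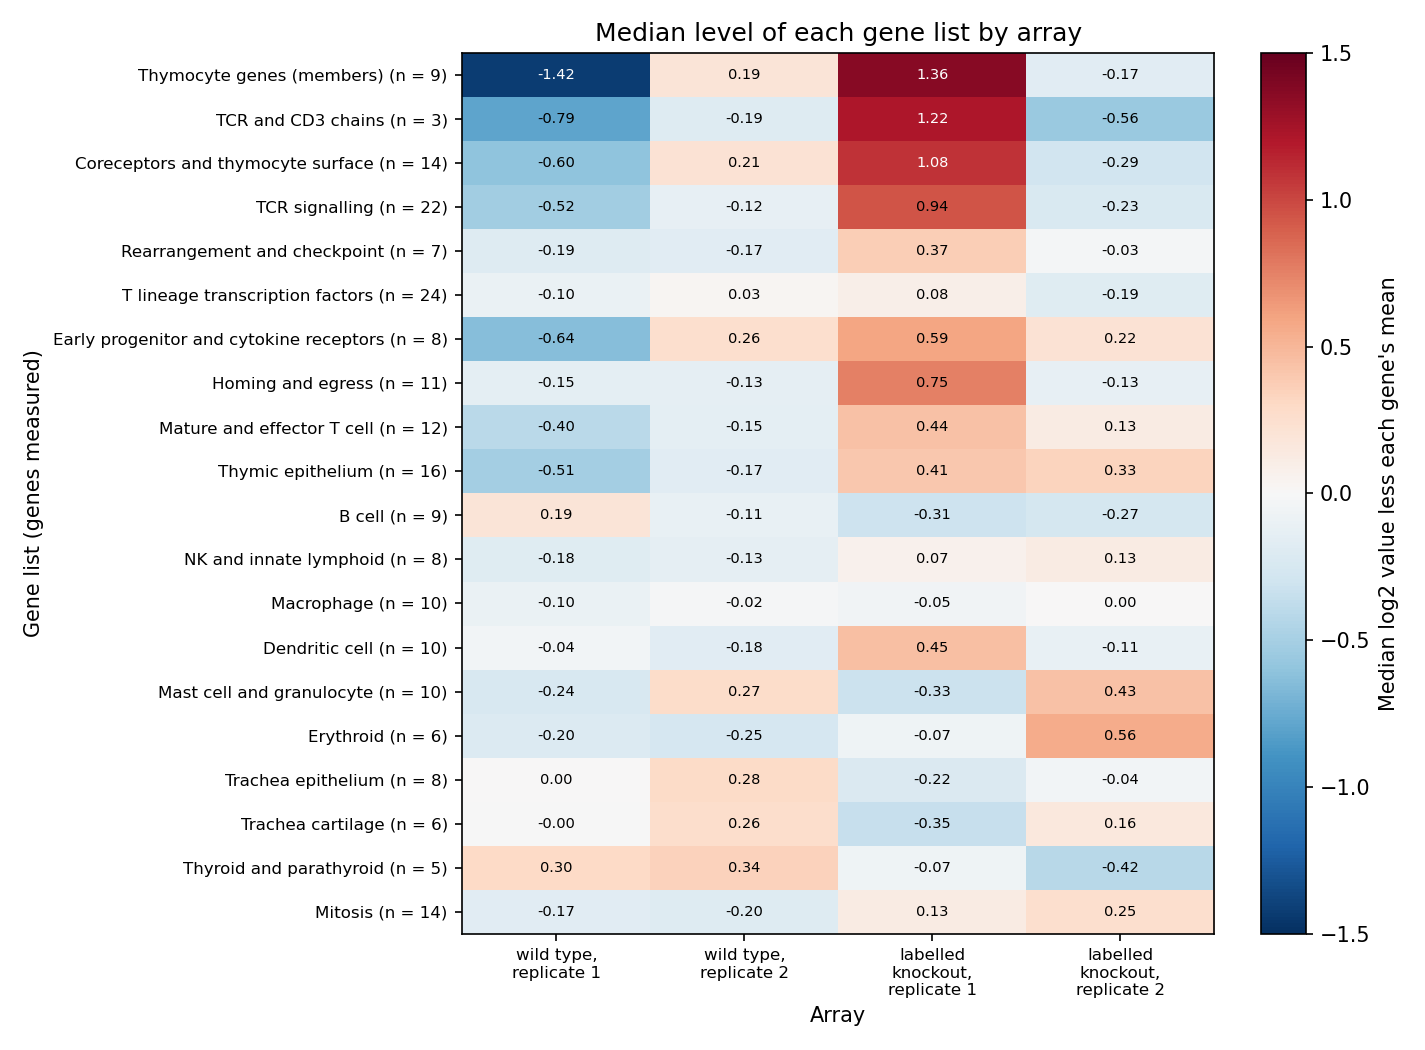
Median over the genes of each list of the log2(signal + 16) value less the gene's own mean over the 4 arrays, by array, in red above and in blue below the mean, with the number of genes measured. The thymocyte genes run from -1.42 on wild-type replicate 1 to 1.36 on knockout replicate 1, and the macrophage, airway epithelium and cartilage lists lie between -0.35 and 0.28. Placental and salivary gland lists, whose differences exceed the colour scale, are not drawn.

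Of macrophage genes 0 of 10, and of B-cell genes 1 of 9, had knockout replicate 1 highest and wild-type replicate 1 lowest, against 4.16% of all genes, and nothing is read from such small counts. Over the 10 macrophage genes the median log2 difference was -0.02 for replicate 1 and 0.02 for replicate 2, and the summed signal was 24181 and 30076 on the wild-type arrays and 25395 and 32990 on those labelled knockout. All 9 measured B-cell genes were below the median level, and Pax5, the factor that defines B cells, picked after its values were seen, read 60.5 and 11.3 on the wild-type arrays and 11.7 and 13.4 on those labelled knockout. Globin and other red-cell genes summed to 24437 and 18316 against 25193 and 40560, highest on knockout replicate 2. Mitosis genes had positive log2 differences in 14 of 14 genes, against 8765 of all 18193 genes. Their median was 0.27 for replicate 1 and 0.52 for replicate 2. In 10 of the 14, both knockout arrays were above both wild-type arrays, against 16.8% of all genes. By limma 5 had an unadjusted p under 0.05, all higher (2.19% of all genes). The part of cell division in the thymocyte gene values was not tested.

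The genes nearest in pattern were sought among the 11687 other genes with a mean at or above the median level, by the distance over the 4 arrays between each gene's log2 values, less its own mean, and the median profile of the 9 thymocyte genes. The 15 nearest had distances of 0.242 to 0.65, where the median gene had 2.01. With only 4 arrays the measure describes these samples alone. Of the 15, 7 were on the pathway lists, 1 on the thymic epithelium list and 7 on none. The nearest was Sh2d1a, the adaptor SAP of T and natural killer cells, at 205 and 546 on the wild-type arrays and 1246 and 410 on those labelled knockout. Cd274, the ligand PD-L1, followed, and then Rasgrp1, Il7r, the interleukin 7 receptor of early lymphocytes, and Trbv1, a variable segment of the receptor beta chain. Trbv1 read 1903 and 4579 on the wild-type arrays and 11578 and 5290 on those labelled knockout. Ikzf1 read 698 and 1449 against 3902 and 1182, and Tbata, a gene of thymic stroma, read 975 and 3109 against 8456 and 3575. The others were Dgkeos, Trgv1, Cd27, Cd8a, Acap1, Rhoh, Akr1c13 and Crip3. All 15 were higher on knockout replicate 1 than on wild-type replicate 1, as the plot of the nearest genes shows. This follows from their choice by distance and is no separate result. The distance of the thymocyte genes themselves from their median profile was smallest for Themis at 0.264 and largest for Dntt at 2.52.

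**Figure D4:**
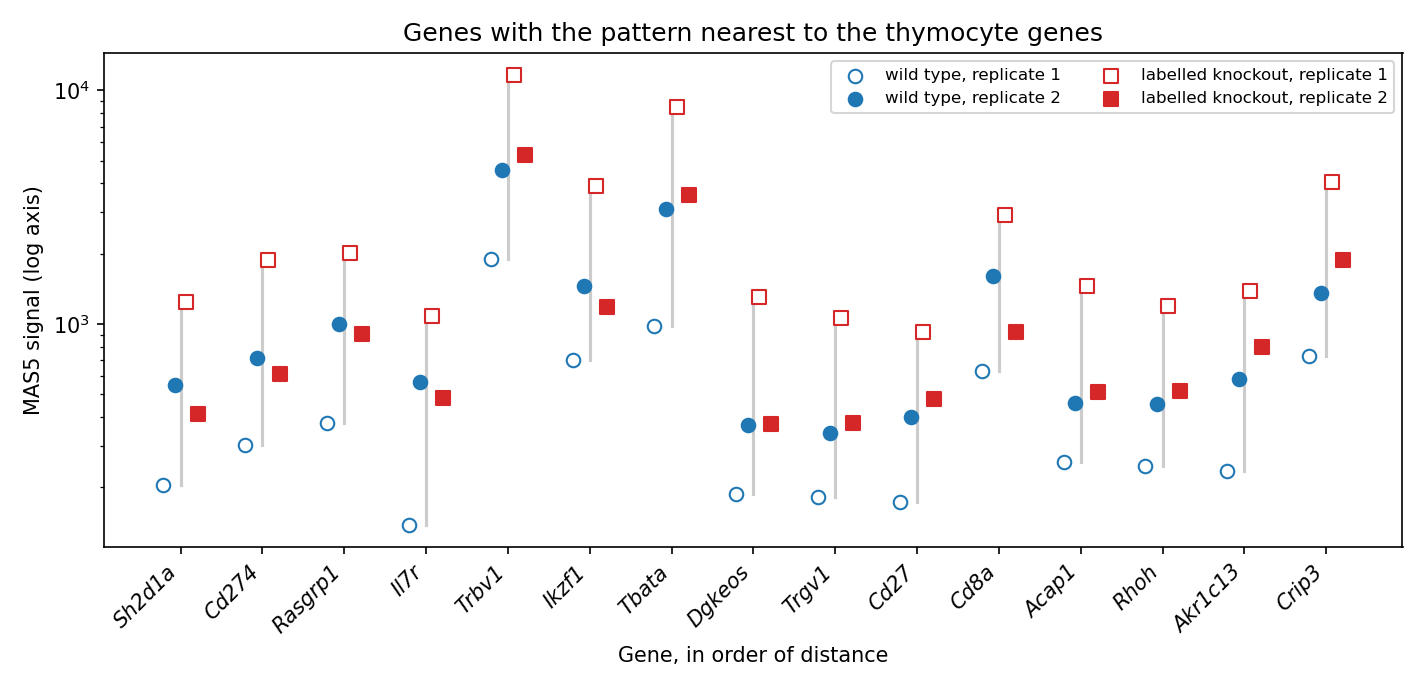
MAS5 signal on a log axis for the 15 genes nearest in pattern to the thymocyte genes, in order of distance, with 1 point per array. Circles are wild type and squares the labelled knockout, open for replicate 1 and filled for replicate 2. In all 15 genes knockout replicate 1 is highest and wild-type replicate 1 lowest, with both replicate 2 arrays between them, which follows from their choice by distance.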

How the data were processed

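The data are 4 Affymetrix arrays of 45101 probe sets each. Per the labels' protocols, 50 ng of Trizol-extracted RNA was amplified to cDNA and marked with biotin. The authors deposited intensity values (linear, not logged) from MAS5, per the submitters' processing notes, which name no version. Each array's mean, trimmed by 2% at both ends, was 1500, as after scaling to a common target. The number of arrays limits the precision, and no detection calls were used.

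Probe sets with exactly 1 gene in the platform annotation (34945 of them) were kept, 932 with several genes, 9160 with none listed and 64 controls were left out, and symbols of 34741 were updated through RefSeq gene identifiers (GRCm38.p6). The probe set of highest mean stood for each of the 18193 genes. Of the listed genes, 36 had no such probe set. Log2(signal + 16) was fitted with limma 3.58.1 in R 4.3.3 (lmFit, then eBayes with a trend on level, with genotype alone). A run on data simulated from the means and SDs of this fit followed, and its outcome is not given here. Benjamini-Hochberg adjustment ran over all genes, and 0.05 was the threshold. Figures used matplotlib 3.10.9 in Python 3.11.15.

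The 10 genes and all lists were chosen with earlier results of these data known. Named genes are the 10 genes, Cacna1h, the 4 brightest of each list where a list is described and the 15 genes nearest in pattern; others were picked after their values were seen, as stated. Alternatives were 2 other pseudocounts, filters on level, 2 other scalings, weights per array, no trend on level, averaging a gene's probe sets, a replicate block and each array left out.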

Additional observations from a re-analysis of the deposited data

How the results depend on the processing

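With all 4 arrays, 0 genes passed under any of the 10 alternatives by limma, with 309 to 1636 genes at an unadjusted p under 0.05 and a smallest adjusted p between 0.467 and 0.892. Leaving out 1 array gave between 0 and 136 genes passing: 136 without knockout replicate 1, 3 without knockout replicate 2 and 0 without either wild-type array. None of the thymocyte genes was among them. The arm left with 1 array is then assumed to vary like the other. The median log2 difference of the measured thymocyte genes lay between 0.95 with the mean of all probe sets and 1.48 with arrays centred on the median, which moved the median of all genes from -0.02 to 0.21. Filters on level kept 7 genes at the median and 4 at the 75th percentile. Leaving out 1 array gave medians of 0.53 to 1.87. Single genes kept their sign in 107 of 110 fits. Of the 110, 74 used all 4 arrays, and 0 of those reversed. Filters on level, array weights and the replicate block left each gene's difference unchanged, so these counts overstate how far the signs were tried. Without wild-type replicate 1, Rag1 was at -0.07 and Cd8b1 at -0.26, and without knockout replicate 1, Cd8b1 was at -0.32. The cause was not tested.

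The genotypes share replicate numbers. With these numbers as a replicate block, 0 genes passed by limma and 1636 had an unadjusted p under 0.05. The median of the thymocyte genes was again 1.25, which such a block cannot change where each number occurs in both genotypes. Deviations of arrays with the same number correlated at 0.15 over all genes and at 0.32 over genes at or above the median level, across genes that are not independent. The hybridisation controls also differed by number, at 5518 and 5449 for replicate 1 and 13082 and 16126 for replicate 2. Nothing in the labels says that the numbers pair samples.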

Other observations

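Genes of antigen presentation and of cytotoxic granules, which the lists held as markers of other cells, included some with the extremes seen in the thymocyte genes. Among the dendritic cell markers, Cd74, the invariant chain of class II molecules, read 1547 and 3341 on the wild-type arrays and 6695 and 4457 on those labelled knockout. H2-Aa and H2-Eb1 are class II chains. H2-Aa read 610 and 1109 against 2841 and 1510, and H2-Eb1 read 336 and 694 against 1456 and 939. Zbtb46, a factor of dendritic cells and endothelium, read 4521 and 3792 against 4348 and 3260. Of the 10 dendritic cell genes, 4 had knockout replicate 1 highest and wild-type replicate 1 lowest, against 4.16% of all genes. Gzma, a granule protease on the natural killer cell list, read 654 and 2417 on the wild-type arrays and 9527 and 3482 on those labelled knockout, which differed by 3.83 in log2 units on the replicate 1 arrays and by 0.52 on the replicate 2 arrays. Prf1, perforin, read 1218 and 887 against 925 and 648, and Nkg7, another granule gene, read 105 and 250 against 537 and 390. Nfil3, a transcription factor of innate lymphoid cells, read 1429 and 1579 against 1823 and 2224. Of the 8 genes of this list, 3 had these extremes. Nothing is read from the counts of either list, since the pattern was taken from these same arrays. Genes of the thyroid and parathyroid, glands that lie beside the trachea, had these extremes in 0 of 5. Tg, thyroglobulin, read 20367 and 27888 on the wild-type arrays and 19217 and 15050 on those labelled knockout. Pth, parathyroid hormone, read 15566 and 22213 against 13924 and 19619, with overlap between the groups.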
